A study of Mus musculus with 9 samples.

Results

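The basal and stress keratins described here are 10 genes of stratified, basal or wounded epithelium: Krt5, Krt14, Krt15, Krt6a, Krt6b, Krt16, Krt17, Krt13, Krt10 and Krt1. They were listed by name and not by a threshold on measured values, with earlier results of these data known, and make up 10 of the 54 keratin genes and 10 of the 55450 genes in the count table. All 10 were matched to their Ensembl identifiers, and 9 of them had enough counts to be tested. Krt6b did not.

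RNA-seq was performed on EYFP+ live cells sorted from the mammary glands of adult nulliparous mice of 3 genotypes, with 3 libraries each. Control mice carried lsl-EYFP and K8CreERT2, LATS1/2-KO mice carried LATS1/2f/f together with both of these alleles, and LATS1/2-Sox9-KO mice carried LATS1/2f/f and Sox9f/f together with both of these alleles. Every mouse, controls included, received 5 daily intraperitoneal doses of 2 mg of tamoxifen, and glands were taken 7 days after the last dose. K8CreERT2 is a tamoxifen-inducible Cre under the Krt8 promoter, so that EYFP marks cells in which that promoter was active when Cre was induced, together with their progeny. Tamoxifen also acts on the oestrogen receptor, and all 3 groups share that exposure. The labels do not say how many mice each library came from, so the spread between libraries may hold technical as well as biological variation. Between 44167762 and 61967651 read pairs were counted per library, with 44167762 to 47003587 in control, 50508666 to 61745346 in LATS1/2-KO and 55503365 to 61967651 in LATS1/2-Sox9-KO.

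Keratins build the intermediate filaments of epithelial cells, and each filament subunit pairs a type I keratin with a type II keratin. In the mammary gland, luminal cells are known for the simple keratins Krt8, Krt18 and Krt19, while basal, myoepithelial cells are known for the pair Krt5 and Krt14, whose genes are classical targets of the transcription factor p63, encoded by Trp63. Krt6a, Krt6b, Krt16 and Krt17 are low in most resting interfollicular epidermis and are induced in wounded skin, Krt13 is a keratin of internal stratified epithelium, and Krt1 and Krt10 pair in the suprabasal layers of the epidermis.

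The targeted genes were examined before the keratins. Normalised counts, that is counts scaled to the mean effective library size, of Lats1 were 5672, 5929 and 5940 in the control libraries, 2090, 1923 and 2336 in the libraries labelled LATS1/2-KO, and 2058, 1844 and 1709 in those labelled LATS1/2-Sox9-KO. Lats1 was therefore lower in every library of both knockout groups, by 1.47 ± 0.11 (SE) and 1.64 ± 0.11 on the log2 scale (edgeR adjusted p = 7.07e-06 and 2.80e-06). Lats2 was not lower: it averaged 1041 ± 177 (SD, n = 3), 1471 ± 236 and 1592 ± 359 normalised counts in the same order. Sox9 stood at 23313, 19948 and 21534 normalised counts in control, 7205, 9506 and 12433 in LATS1/2-KO, and 8812, 6756 and 6460 in LATS1/2-Sox9-KO. Sox9 was thus already lower where the label names LATS1/2 alone, by 2.22-fold (-1.15 ± 0.19 on the log2 scale, edgeR adjusted p = 0.000682, and -0.97 without LATS1/2-KO replicate 1), and the LATS1/2-Sox9-KO libraries overlapped with these (-0.40 ± 0.19, adjusted p = 0.25). Counts were summed over all exons of a gene and cannot show the loss of single exons. Because Lats2 was not lower and Sox9 did not separate the knockout groups from each other, the groups are named below by their labels.

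The luminal label of the sorted cells was checked against markers of the lineage. Krt8 was at 168814 to 216010 normalised counts in control and Krt18 at 239706 to 257940, and both were higher still in every library of both knockout groups. Of the 7 epithelial markers (Cdh1, Epcam, Cldn3, Cldn4, Cldn7, Krt8, Krt18), 0 were called in LATS1/2-KO against control by edgeR at the thresholds given next, with 2 higher and 3 lower at an unadjusted p under 0.05, and 0 by DESeq2. In LATS1/2-Sox9-KO against control, 2 were called higher, Krt8 and Krt18, and 1 lower, the adhesion molecule gene Epcam (-1.30 ± 0.11, adjusted p = 6.18e-06), with all its libraries below control. Of 9 luminal markers, 4 were called lower in LATS1/2-KO, with 0 higher by edgeR or DESeq2 and 2 higher at an unadjusted p under 0.05, and in LATS1/2-Sox9-KO 7 were called lower and 2 higher. Foxa1, Gata3, Esr1 and Pgr, transcription factors and hormone receptors of mature luminal cells, were called lower in both knockout groups, Pgr at log2 fold changes of -5.91 ± 0.60 and -9.34 ± 0.72 (adjusted p = 2.99e-05 and 4.48e-06), the first of which was -6.56 without LATS1/2-KO replicate 1. Elf5 and Kit, genes of luminal progenitors, were at -0.35 and 0.06 in LATS1/2-KO (adjusted p = 0.427 and 0.915) and were called lower in LATS1/2-Sox9-KO, at -1.45 and -1.66 (adjusted p = 0.00558 and 0.011), and their differences between the knockout groups were not called (adjusted p = 0.0965 and 0.0562). Of the 9 luminal markers, only Pgr was called between the knockout groups, lower in LATS1/2-Sox9-KO (-3.43 ± 0.60, adjusted p = 0.0136). That call ended in 2 of 18 alternatives.

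A gene was called when its log2 fold change passed 1 in either direction with an adjusted p of at most 0.05 in edgeR's quasi-likelihood test, adjusted over 19357 genes. In LATS1/2-KO against control, 17.1% of all tested genes were called higher and 17.5% lower. In LATS1/2-Sox9-KO against control, the shares were 17.8% higher and 19.6% lower. In LATS1/2-Sox9-KO against LATS1/2-KO, 1.55% were called higher and 2.16% lower. Of the 9 tested keratins, 3 were called higher and 3 lower in LATS1/2-KO, and 5 higher and 3 lower in LATS1/2-Sox9-KO, both against control. In each of these comparisons 2 of the 3 lower calls were Krt13 and Krt1, which reached the filter on low counts only through control and so could only be called lower. With a minimum of 10 counts in every library, 1 was called lower in each. Between the knockout groups, 2 were called higher and 0 lower by edgeR, with 0 lower also by DESeq2 or at an unadjusted p under 0.05. Their median log2 fold changes were 0.06, 1.59 and 0.41 in the 3 comparisons, against 0.04, 0.01 and -0.02 over all tested genes. The first 2 comparisons share the control libraries, and the last 2 share the LATS1/2-Sox9-KO libraries, so their results are not independent of each other.

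Several of these keratins are so alike that short reads cannot always be assigned to a single gene, which bears on how their counts may be read. For the 6 type I members, the stretches below are 48 bases of coding sequence at the conserved end of the central rod domain, read from GENCODE M21 transcripts on GRCm38 and all on the minus strand. Each lies within a single coding exon. Each was set against Krt14, and capitals mark bases that differ from it.

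Krt14: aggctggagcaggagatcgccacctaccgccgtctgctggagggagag
Krt17: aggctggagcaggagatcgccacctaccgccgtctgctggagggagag
Krt16: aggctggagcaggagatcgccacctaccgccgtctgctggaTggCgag
Krt13: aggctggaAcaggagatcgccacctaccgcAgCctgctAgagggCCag
Krt15: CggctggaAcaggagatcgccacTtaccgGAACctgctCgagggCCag
Krt10: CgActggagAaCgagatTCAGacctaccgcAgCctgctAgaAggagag

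The stretch was identical in Krt14 (chr11:100204116-100204163) and Krt17 (chr11:100257441-100257488), and differed at 2 bases in Krt16 (chr11:100246618-100246665), at 6 in Krt13 (chr11:100118741-100118788), at 10 in Krt15 (chr11:100132999-100133046) and at 12 in Krt10 (chr11:99386536-99386583). Over whole transcripts, 57.2% of the 50-base words of Krt6a and 50.1% of those of Krt6b also occurred in another gene, mostly in each other. The share was 37.6% for Krt16, mostly with the pseudogene Gm11597, 13.9% for Krt14, 12.2% for Krt5 and 3.99% for Krt17. It was 2.37% for Krt10, 0.64% for Krt15, and 0 for Krt13 and Krt1. The authors counted uniquely aligned pairs, so reads that fall wholly in shared words of Krt6a, Krt6b or Krt16 may be missing from their counts or placed on a near-identical copy, and the levels of these 3 genes are uncertain to that extent. Gm11597 itself had between 0 and 10 counts in any library.

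Krt14, the type I keratin of the basal pair, was the member with the largest rise. It stood at 909, 501 and 606 normalised counts in the control libraries. In the libraries labelled LATS1/2-KO it stood at 252969, 140251 and 139506, and in those labelled LATS1/2-Sox9-KO at 117088, 239974 and 349679. Every knockout library was far above every control library, while the knockout groups overlapped. The change from control was 264-fold in LATS1/2-KO (log2 fold change 8.04 ± 0.52, adjusted p = 3.12e-06, 95% interval 6.87 to 9.22) and 350-fold in LATS1/2-Sox9-KO (8.45 ± 0.53, adjusted p = 1.74e-06). Between the knockout groups the log2 fold change was 0.41 with an interval of -0.45 to 1.27 (adjusted p = 0.586).

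Krt5, the type II partner of Krt14 in basal cells, did not follow it. Its normalised counts were 558, 485 and 354 in control, 653, 199 and 606 in LATS1/2-KO, and 473, 2162 and 1579 in LATS1/2-Sox9-KO. The LATS1/2-KO libraries lay on both sides of the control range, and the log2 fold change was 0.06 with an interval of -1.14 to 1.26 (adjusted p = 0.935). In LATS1/2-Sox9-KO replicates 2 and 3 lay above all control libraries and replicate 1 lay among them. Krt5 was called there at 1.59 ± 0.55 (adjusted p = 0.0298), but without LATS1/2-Sox9-KO replicate 2 the value was 1.16 (adjusted p = 0.115), without LATS1/2-Sox9-KO replicate 3 it was 1.51 (adjusted p = 0.0684), and without any 1 of the control replicates the adjusted p was between 0.0527 and 0.0876. Against LATS1/2-KO the change was 1.53 ± 0.55 (adjusted p = 0.131), and without LATS1/2-Sox9-KO replicate 1 it was 1.98 (adjusted p = 0.0437).

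The imbalance of the pair is clearest on a scale of normalised counts per kb of exon, which allows genes to be compared. Krt14 was at 1.82 ± 0.465 times the level of Krt5 in control (SD, n = 3), at 551 ± 302 times in LATS1/2-KO and at 242 ± 90.7 times in LATS1/2-Sox9-KO. The lowest ratio of any knockout library was 139 and the highest of any control library 2.14.

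Krt15, a type I keratin of basal cells in stratified epithelium, moved against Krt14. Control libraries held 1233, 1574 and 1774 normalised counts, LATS1/2-KO libraries 292, 38.1 and 49.2, and LATS1/2-Sox9-KO libraries 69.6, 91.7 and 47.4. All 6 knockout libraries were below all controls, with LATS1/2-KO replicate 1 set apart from the rest of its group. The log2 fold changes were -3.60 ± 0.69 (adjusted p = 0.00147, and -5.12 without LATS1/2-KO replicate 1) and -4.46 ± 0.72 (adjusted p = 0.00047). Krt15 was the member with the highest level per kb in control, 864 ± 155, above every library's value of the next member, and took place 7 of 10 in both knockout groups.

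**Figure D1:**
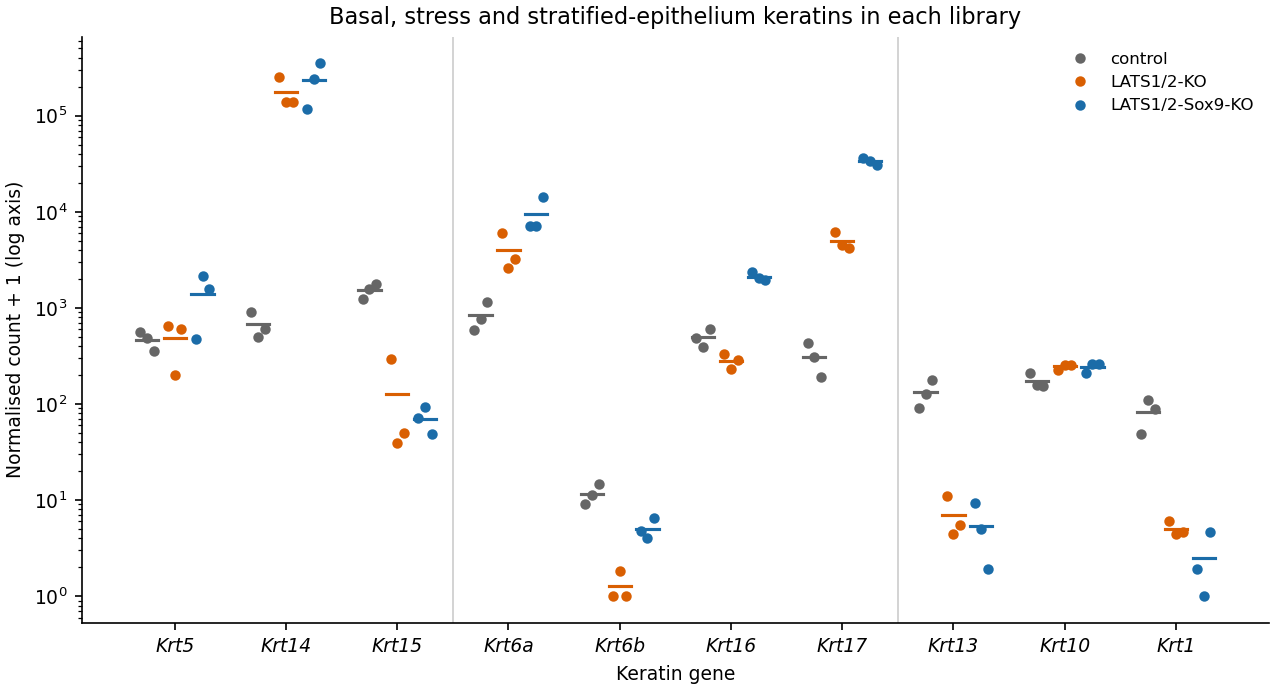
Normalised count plus 1 of each of the 10 keratins (log axis) in each library, with points for libraries, short lines for group means and 3 libraries per group in order of replicate number. Krt14 and Krt17 of all 6 knockout libraries sit above all controls, Krt15, Krt13 and Krt1 sit below them, and Krt5 and Krt10 lie close to or among the controls in most libraries.

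Among the stress keratins, Krt16 and Krt17 were called between the knockout groups. Krt17, a type I keratin of wounded skin and hair follicles, rose in both knockout groups and rose further in the libraries labelled LATS1/2-Sox9-KO. Its normalised counts were 432, 311 and 188 in control, 6198, 4483 and 4168 in LATS1/2-KO, and 36551, 33391 and 30719 in LATS1/2-Sox9-KO. No 2 groups overlapped. The changes from control were 15.9-fold (log2 fold change 3.99 ± 0.29, adjusted p = 4.86e-06) and 108-fold (6.76 ± 0.32, adjusted p = 4.92e-07), and the change between the knockout groups was 6.78-fold (2.76 ± 0.27, adjusted p = 0.00147).

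Krt16, the type I partner of Krt6a in wounded skin, behaved differently in the 2 knockout groups. It was at 489, 391 and 597 normalised counts in control, at 332, 231 and 284 in LATS1/2-KO, and at 2351, 2036 and 1955 in LATS1/2-Sox9-KO. All LATS1/2-KO libraries were below all controls and all LATS1/2-Sox9-KO libraries above them. The log2 fold change in LATS1/2-KO was -0.81 ± 0.19 (adjusted p = 0.00559), short of the fold required for a call, and in LATS1/2-Sox9-KO it was 2.10 ± 0.20 (adjusted p = 1.48e-05). The difference between the knockout groups was itself tested and was 7.50-fold (2.91 ± 0.21, adjusted p = 0.000867).

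Krt6a, the type II stress keratin, stood at 590, 764 and 1141 normalised counts in control, at 6061, 2622 and 3257 in LATS1/2-KO, and at 7039, 7090 and 14336 in LATS1/2-Sox9-KO. It rose 4.78-fold (log2 fold change 2.26 ± 0.40, adjusted p = 0.000887) and 11.4-fold (3.51 ± 0.42, adjusted p = 6.41e-05). All LATS1/2-Sox9-KO libraries lay above all LATS1/2-KO libraries, but the difference between these groups, 1.25 ± 0.38 with an interval of 0.40 to 2.11, was not called (adjusted p = 0.0824). It was called when LATS1/2-KO replicate 1 was left out (1.69, adjusted p = 0.027).

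Krt6b, the near copy of Krt6a, was close to the limit of detection. Its raw counts were 7, 9 and 11 in control, 0, 1 and 0 in LATS1/2-KO, and 4, 3 and 6 in LATS1/2-Sox9-KO. Summed over libraries, LATS1/2-Sox9-KO was at 0.386 of control per unit of depth, with an exact 95% interval of 0.183 to 0.774, and LATS1/2-KO, with a single count, at 0.0288 with an interval of 0.000704 to 0.175. Both intervals cover counting error alone. With no filter on low counts, Krt6b was called lower in LATS1/2-KO against control (-4.65, adjusted p = 0.013) and in neither other comparison (adjusted p = 0.404 and 0.222). The increase in Krt6a was thus not seen in Krt6b, although the shared words above leave only part of the Krt6b transcript free to receive uniquely aligned reads.

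Per kb, Krt6a was at 0.685 ± 0.263 times the sum of Krt16 and Krt17 in control, at 0.474 ± 0.119 times in LATS1/2-KO and at 0.175 ± 0.0922 times in LATS1/2-Sox9-KO. The control and LATS1/2-KO libraries overlapped in this ratio, from 0.413 to 0.939 and from 0.357 to 0.596, while the LATS1/2-Sox9-KO libraries lay between 0.116 and 0.282. An exact two-sided permutation test of the log2 ratio gave p = 0.3 for LATS1/2-KO against control and p = 0.1 for LATS1/2-Sox9-KO against either group, the smallest value that 3 libraries against 3 allow.

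Among the keratins of differentiated stratified epithelium, Krt13 and Krt1 were low everywhere and lowest in the knockout groups. Raw counts of Krt13 were 78, 112 and 142 in control, 10, 4 and 5 in LATS1/2-KO, and 9, 4 and 1 in LATS1/2-Sox9-KO. Raw counts of Krt1 were 41, 97 and 70 in control, 5, 4 and 4 in LATS1/2-KO, and 1, 0 and 4 in LATS1/2-Sox9-KO. Both were called lower, Krt13 at -4.44 ± 0.67 and -4.86 ± 0.69 (adjusted p = 0.000309 and 0.000187) and Krt1 at -4.31 ± 0.72 and -5.60 ± 0.80 (adjusted p = 0.000583 and 0.000188). In LATS1/2-Sox9-KO Krt13 was at -5.68 without LATS1/2-Sox9-KO replicate 1 and Krt1 at -7.07 without LATS1/2-Sox9-KO replicate 3. They passed the filter on low counts only through the control libraries, so a call in this direction was the only one open to them. From the summed counts, control was at 22.5 times LATS1/2-KO for Krt13 (exact 95% counting interval 14.2 to 37.8) and at 20.6 times for Krt1 (11.8 to 39.3).

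Krt10, the type I partner of Krt1, was not called against control in either knockout group. It was at 210, 155 and 154 normalised counts in control, at 226, 254 and 255 in LATS1/2-KO, and at 207, 257 and 262 in LATS1/2-Sox9-KO. All LATS1/2-KO libraries lay above all controls, while LATS1/2-Sox9-KO replicate 1 lay among them. The log2 fold changes were 0.50 ± 0.22 and 0.48 ± 0.22 (adjusted p = 0.0719 and 0.0787), with intervals of 0.02 to 0.98 and 0.00 to 0.96. The antisense gene Gm11940, with 3 to 28 counts per library, overlaps Krt10, and Gm49428, with 0 to 24 counts, overlaps Krt6a. The library kit does not mark strand, whereas the study's methods name pairs on the same strand, so how far the counts of these overlapping genes are separate is uncertain.

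**Figure D2:**
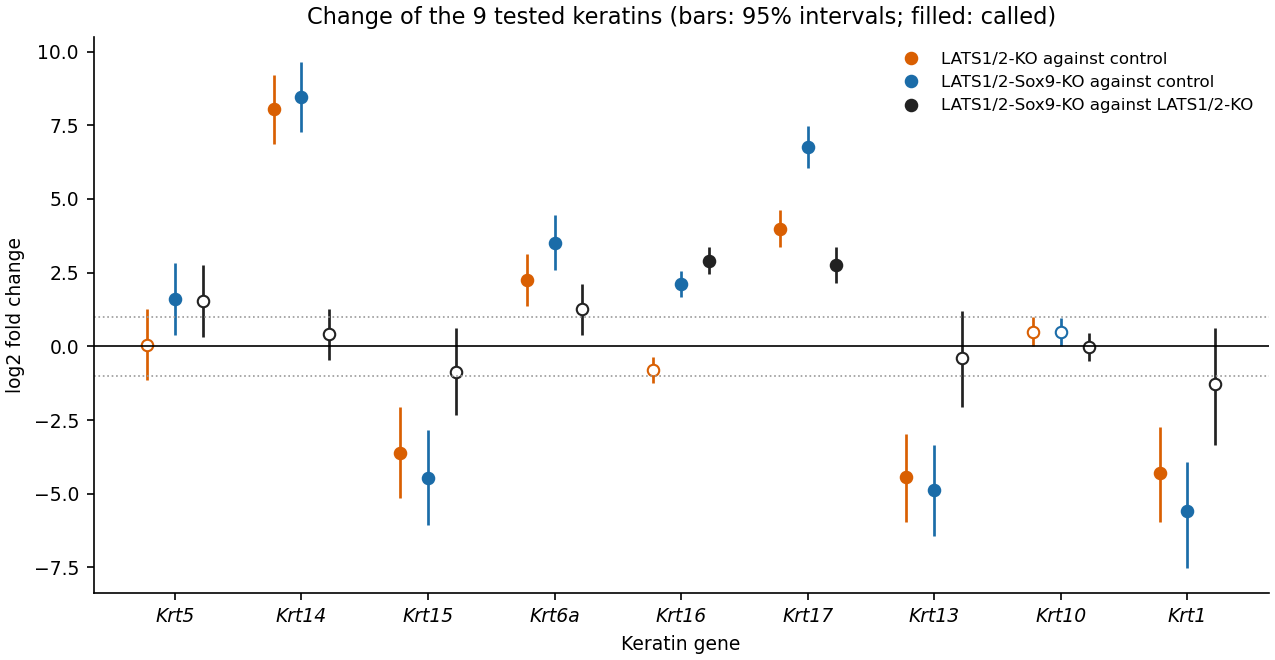
Log2 fold change of the 9 tested keratins in the 3 comparisons, with bars for 95% intervals, filled points for called changes and dotted lines at a log2 fold change of 1 and -1. Krt14 lies above 8 against control in both knockout groups and near 0.41 between them, whereas Krt16 and Krt17 lie at 2.91 and 2.76 between them.

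Ordered by level per kb, the control libraries ran from Krt15 through Krt14, Krt6a, Krt16, Krt5, Krt17, Krt10, Krt13 and Krt1 to Krt6b, and neighbours overlapped between Krt14 and Krt6a, Krt6a and Krt16, Krt16 and Krt5, Krt5 and Krt17, and Krt10 and Krt13. In both knockout groups the order opened with Krt14, Krt17 and Krt6a, with no overlap between neighbours. Krt14 averaged 101010 ± 37141 per kb in LATS1/2-KO and 134005 ± 66188 in LATS1/2-Sox9-KO, and Krt17 averaged 3191 ± 704 and 21633 ± 1882. Krt16 and Krt5 exchanged places, with Krt5 at 221 ± 114 ahead of Krt16 at 180 ± 32.4 in LATS1/2-KO, where they overlapped, and Krt16 at 1351 ± 134 ahead of Krt5 at 639 ± 391 in LATS1/2-Sox9-KO, where they did not.

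The simple keratins set the scale against which these levels can be read. Krt7, a type II keratin of ducts, rose from 34579, 32164 and 34752 normalised counts in control to 169539, 175831 and 172142 in LATS1/2-KO and to 335742, 292202 and 277263 in LATS1/2-Sox9-KO, with no overlap between groups. Its log2 fold changes from control were 2.35 ± 0.11 and 3.16 ± 0.11 (adjusted p = 5.47e-07 and 1.12e-07). Krt8 and Krt18, the luminal pair, were called only in LATS1/2-Sox9-KO, at 1.26 ± 0.12 and 1.53 ± 0.11 (adjusted p = 1.34e-05 and 3.15e-06), and in LATS1/2-KO were at 0.58 and 0.71, under the fold required (adjusted p = 0.00186 and 0.000337). Between the knockout groups Krt7, Krt8 and Krt18 were higher in LATS1/2-Sox9-KO by 0.81, 0.68 and 0.82, each short of that fold (adjusted p = 0.00425, 0.0129 and 0.00517). Krt19 went the other way in LATS1/2-KO, at -1.03 ± 0.24 (adjusted p = 0.00418), and was not called in LATS1/2-Sox9-KO (-0.37 ± 0.23, adjusted p = 0.204). Its call in LATS1/2-KO missed the fold required without control replicate 3 (-0.92), LATS1/2-KO replicate 2 (-0.82) or LATS1/2-KO replicate 3 (-0.95). Krt20 did not pass the filter and Krt2 had no counts. Krt8 shares 29.7% of its 50-base words with other genes, mostly the pseudogene Krt8-ps, which took between 19.0% and 20.7% of the counts of both in every library, so a like share of the reads may be missing from Krt8 in all groups.

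Expressed as a share of all keratin transcripts per kb, the 10 keratins rose from 0.653 ± 0.0307% in control (SD, n = 3) to 17.2 ± 4.69% in LATS1/2-KO and 15.9 ± 6.51% in LATS1/2-Sox9-KO. Krt14 alone made up 0.139 ± 0.0499% of type I keratin transcripts in control, 22.7 ± 5.89% in LATS1/2-KO and 18.1 ± 8.79% in LATS1/2-Sox9-KO. Krt17 made up 0.0735 ± 0.0328%, 0.723 ± 0.0852% and 2.94 ± 0.291%. Krt5 remained a minor type II keratin, with 0.209 ± 0.0709%, 0.127 ± 0.0625% and 0.232 ± 0.144% of type II transcripts. The ratio of all type I to all type II keratin transcripts was 2.67 ± 0.203, 2.55 ± 0.148 and 2.64 ± 0.127, and the 3 groups overlapped. With the length of the longest transcript instead, it was 2.74 ± 0.188, 2.36 ± 0.166 and 2.43 ± 0.138. On that scale control replicate 3, at 2.53, was the only control library within the range of the knockout libraries. Krt14 therefore rose without a matching rise in Krt5, in a pool where Krt8 was the most abundant type II keratin of every library.

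**Figure D3:**
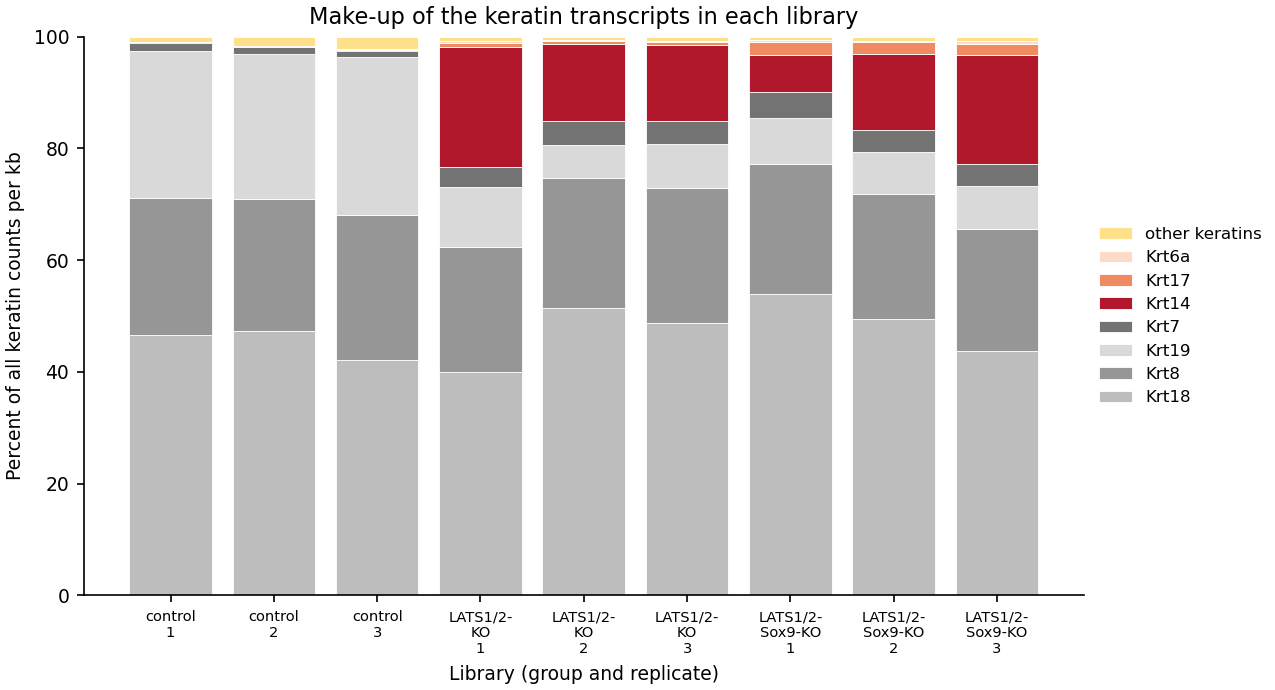
Percent of all keratin counts per kb of exon taken by each keratin in each library, with 3 libraries per group. Krt8, Krt18, Krt19 and Krt7 together made up 98.2% of the pool on average in control, 82.2% in LATS1/2-KO and 83.6% in LATS1/2-Sox9-KO, and Krt14 takes most of the difference.

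In the rest of the keratin family, 18 of 44 genes were tested, of which 3 were called higher and 6 lower in LATS1/2-KO, and 7 higher and 6 lower in LATS1/2-Sox9-KO. Among the lower calls, Krt77 and Krt31 in both groups and Krt36 in LATS1/2-Sox9-KO passed the filter on low counts only through control, so that lower was the only call open to them, and among the higher calls Krt32 passed only through the knockout libraries. Between the knockout groups edgeR called 0 and DESeq2 called 2 higher, and 9 were higher and 2 lower at an unadjusted p under 0.05. Their median log2 fold changes were 0.32, 0.51 and 0.34. Krt4, a type II keratin of internal stratified epithelium and the usual partner of Krt13, ranged from 1532 to 12721 normalised counts within control alone, and its changes of -0.74 and -1.26 were not called (adjusted p = 0.322 and 0.1), although without control replicate 1 they were -1.22 (adjusted p = 0.032) and -1.74 (adjusted p = 0.00591), both called. Over 18 alternatives these changes of Krt4 ran from -1.22 to 0.026 in LATS1/2-KO and from -1.74 to -0.47 in LATS1/2-Sox9-KO. Krt77, a keratin of the epidermis and sweat gland ducts, was at 27.8, 153 and 365 normalised counts in control and at 0 to 1.0 in the knockout libraries. Krt13, Krt4, Krt77 and Krt1 all varied among the control libraries, and replicate 3 was the highest of them in Krt13, Krt4 and Krt77.

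The genes that place keratins within an epithelium were examined next, grouped in lists. Of 11 genes of basal epithelial adhesion and identity, 5 were called higher and 2 lower in each knockout group against control, and 0 between the knockout groups by edgeR or DESeq2, where 2 were higher at an unadjusted p under 0.05. The medians were 0.34, 0.67 and 0.06. Itgb1 and Itga3, integrin chains that bind the basement membrane, rose by 2.00 ± 0.13 and 1.67 ± 0.33 in LATS1/2-KO and by 1.77 ± 0.13 and 2.48 ± 0.34 in LATS1/2-Sox9-KO (adjusted p = 3.11e-06, 0.00182, 3.38e-06 and 0.00016). Cdh3, the P-cadherin of basal cells, rose 2.47-fold in LATS1/2-KO and 4.91-fold in LATS1/2-Sox9-KO (log2 standard error 0.32 in both, adjusted p = 0.00569 and 0.00019).

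Trp63, which encodes the p63 regulator of Krt5 and Krt14, went against Krt14. Its normalised counts were 373, 2153 and 2133 in control, 70.2, 40.7 and 53.8 in LATS1/2-KO, and 32.5, 110 and 114 in LATS1/2-Sox9-KO. All knockout libraries were below all controls, at -4.82 ± 0.71 and -4.19 ± 0.69 (adjusted p = 0.000291 and 0.000503). Itga6, the integrin chain of hemidesmosomes, was the other gene called lower in both, at -1.04 and -1.11 (adjusted p = 8.74e-05 and 4.86e-05), the first of which was -0.93 without LATS1/2-KO replicate 1.

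The desmosomal and hemidesmosomal genes that anchor keratin filaments numbered 17. Of these, 4 were called higher and 4 lower in LATS1/2-KO, 5 higher and 3 lower in LATS1/2-Sox9-KO, and 3 higher and 0 lower between the knockout groups (0 lower also by DESeq2 or at an unadjusted p under 0.05), with medians of 0.51, 0.76 and 0.34. Dsg3, a desmoglein of basal keratinocytes, was at 1.2, 1.1 and 0 normalised counts in control, at 4189, 2812 and 1780 in LATS1/2-KO, and at 2846, 17176 and 21544 in LATS1/2-Sox9-KO (adjusted p = 2.96e-05 and 8.04e-06 against control). Dsg3 and Dsc3 passed the filter on low counts only through the knockout libraries, so that no call other than higher was open to them against control. Dsc3, a desmocollin of basal keratinocytes, rose by 5.02 ± 0.84 and 5.30 ± 0.84 (adjusted p = 0.000605 and 0.000387). Plec, which encodes the large keratin linker plectin, and Jup, which encodes plakoglobin, fell by 1.52 and 1.38 in LATS1/2-KO (adjusted p = 0.00311 and 0.000154). In LATS1/2-Sox9-KO Plec was called lower at -1.16 (adjusted p = 0.0119, and -0.99 without LATS1/2-Sox9-KO replicate 2), and Jup was at -0.95, short of the fold required (adjusted p = 0.00132). The genes that separated the knockout groups were Ppl and Evpl, which encode periplakin and envoplakin, linkers of keratin at the cell periphery, and the desmocollin gene Dsc2. Ppl was at 7614, 6823 and 5855 normalised counts in control, at 17156, 18636 and 19101 in LATS1/2-KO, and at 43176, 56764 and 51662 in LATS1/2-Sox9-KO, with no overlap between groups (1.47 ± 0.14 between the knockout groups, adjusted p = 0.0014). Evpl was 1.47 ± 0.17 higher in LATS1/2-Sox9-KO than in LATS1/2-KO (adjusted p = 0.00269) and Dsc2 1.06 ± 0.26 higher (adjusted p = 0.0442), a call that ended in 10 of 18 alternatives.

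Among 14 regulators of keratinocyte genes, 2 were called higher and 5 lower in LATS1/2-KO, 2 higher and 3 lower in LATS1/2-Sox9-KO, and 1 higher and 0 lower between the knockout groups (1 lower at an unadjusted p under 0.05, 0 by DESeq2), with medians of -0.70, -0.70 and 0.22. The last median is 0.32 with Pou2f3, which had no counts in LATS1/2-Sox9-KO, set to its bound, and the second did not move. Ovol2, a zinc finger repressor of epithelial cells, rose by 1.57 ± 0.19 and 1.29 ± 0.18 (adjusted p = 7.36e-05 and 0.000207). Zfp750, a p63 target that promotes late keratinocyte differentiation, was at 3382, 3841 and 1657 normalised counts in control, at 660, 684 and 644 in LATS1/2-KO, and at 1656, 2064 and 1625 in LATS1/2-Sox9-KO. It fell in LATS1/2-KO by 2.16 ± 0.27 (adjusted p = 0.000104) and was 1.43 ± 0.26 higher in LATS1/2-Sox9-KO than in LATS1/2-KO (adjusted p = 0.0159). The latter call ended in 3 of 18 alternatives, among them without LATS1/2-KO replicate 3 (adjusted p = 0.0643) and without LATS1/2-Sox9-KO replicate 2 (adjusted p = 0.0649). Pou2f3, an epidermal POU factor, was at least 48.5-fold lower in LATS1/2-Sox9-KO than in control, taking 3 counts per library as the floor. It passed the filter only through control and is 1 of the genes called lower in each knockout group, the only call open to it.

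Of 14 genes of wounded or stressed epithelium, 12 were tested, with 5 called higher and 4 lower in LATS1/2-KO, 5 higher and 3 lower in LATS1/2-Sox9-KO, and 1 each way between the knockout groups. The medians were 1.14, 0.62 and 0.25. Ereg, which encodes the EGF receptor ligand epiregulin, had 6, 0 and 10 raw counts in control and rose 128-fold and 293-fold (log2 standard errors 0.52 and 0.54, adjusted p = 5.66e-06 and 1.96e-06). With so few control counts these folds were uncertain, and the log2 fold changes were 6.40 and 7.60 without control replicate 2 and 7.84 and 9.06 without control replicate 3. Ereg was above the filter on low counts in 1 control library and in 3 libraries of each knockout group. It was therefore tested only through the knockout libraries, where it was high. Areg, which encodes the ligand amphiregulin, fell by 3.25 ± 0.56 and 3.21 ± 0.56 (adjusted p = 0.000768 and 0.000733), the first of which was -3.92 without LATS1/2-KO replicate 1. Sprr1a was also called lower in both knockout groups, at -3.38 ± 0.74 and -3.13 ± 0.73 (adjusted p = 0.00321 and 0.00425). All its knockout libraries lay below all controls. Il1a, an alarm cytokine of keratinocytes, was at 1.2, 0 and 5.0 normalised counts in control, at 16.0, 13.6 and 25.5 in LATS1/2-KO, and at 188, 247 and 182 in LATS1/2-Sox9-KO, and like Krt16 and Krt17 was called higher between the knockout groups (3.48 ± 0.53, adjusted p = 0.00832). Il1a passed the filter only through the knockout libraries. Lcn2, an antimicrobial protein of stressed epithelium, was lower in LATS1/2-Sox9-KO than in LATS1/2-KO (-1.31 ± 0.32, adjusted p = 0.0415), a call that ended in 8 of 18 alternatives, with adjusted p from 0.0992 to 0.155 without any 1 of the LATS1/2-Sox9-KO replicates.

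Of 15 genes of the cornified layer, 10 were tested, with 4 called higher and 2 lower in LATS1/2-KO, 5 higher and 1 lower in LATS1/2-Sox9-KO, and 1 higher between the knockout groups. The medians were 1.16, 1.92 and 0.33. Casp14, the caspase of the cornifying epidermis, had no counts in control and 1739 to 3775 normalised counts in the knockout libraries, at least 693-fold and 809-fold higher in LATS1/2-KO and LATS1/2-Sox9-KO with a floor of 3 counts per control library. Cnfn, which encodes the envelope protein cornifelin, was at 0 to 1.7 normalised counts in LATS1/2-KO and at 81.7, 51.8 and 49.2 in LATS1/2-Sox9-KO (5.89 ± 1.08, adjusted p = 0.0141). Cnfn passed the filter on low counts only through LATS1/2-Sox9-KO, so that higher was the only call open to it, and Casp14 and Tgm3 only through the knockout groups. Without LATS1/2-KO replicate 3 the adjusted p of Cnfn was 0.0574 and without LATS1/2-Sox9-KO replicate 2 it was 0.0522. Over 17 alternatives the log2 fold change of Cnfn between the knockout groups ran from 5.41 to 6.69. The lower calls were those of Ivl in LATS1/2-KO (-8.72 ± 2.38, adjusted p = 0.00792) and of Calml3 in both knockout groups. Calml3 was at -4.20 ± 1.16 and -3.63 ± 1.12 (adjusted p = 0.0111 and 0.018), calls that ended in 1 and 4 of 17 alternatives. Ivl was not called in LATS1/2-Sox9-KO (-2.53, adjusted p = 0.15). It passed the filter only through control and LATS1/2-Sox9-KO. Flg, the filaggrin gene of the epidermal granular layer, had 0 counts in all libraries.

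**Figure D4:**
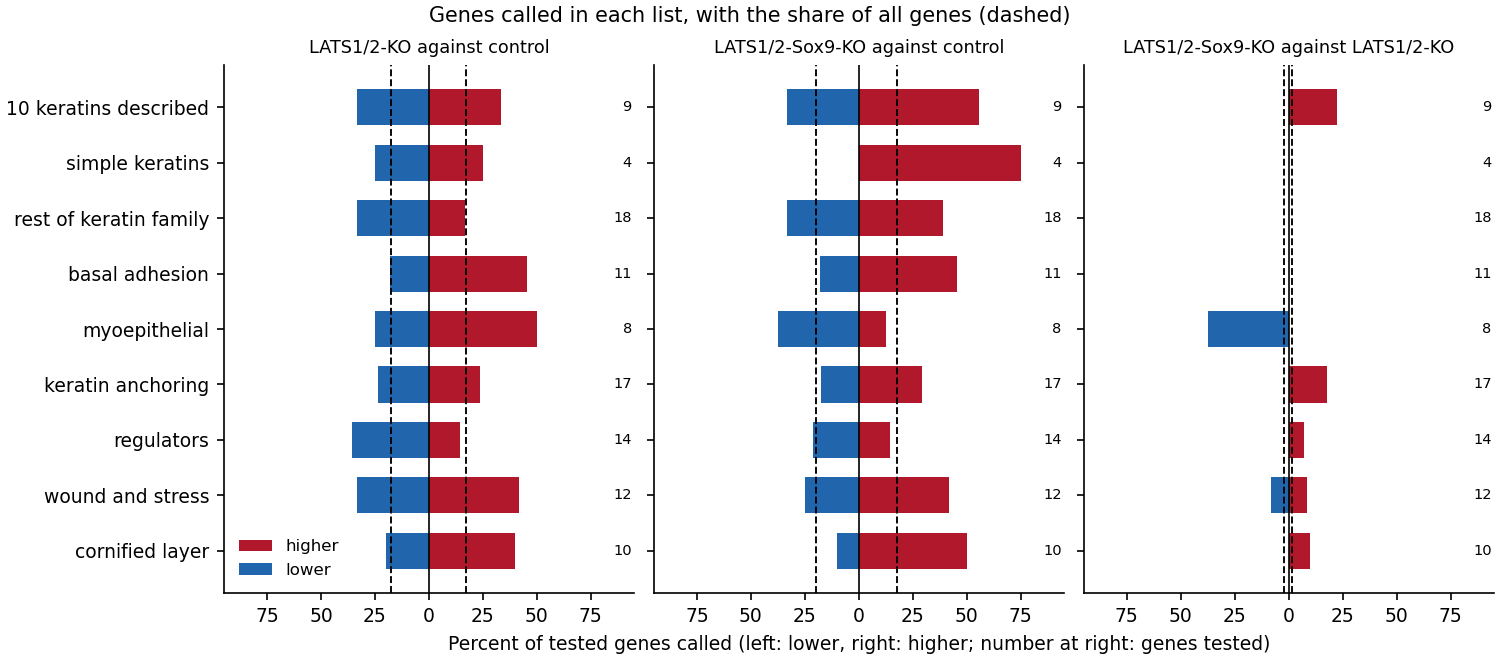
Percent of the tested genes of each list called higher (right) or lower (left) in the 3 comparisons, with the number tested beside each bar and dashed lines at the share of all 19357 tested genes. The lists hold at most 18 tested genes, so a single gene moves a bar by many percent.

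The myoepithelial contractile genes, which basal mammary cells express together with Krt5 and Krt14, were called in both directions. Of 8 genes, 4 were called higher and 2 lower in LATS1/2-KO, 1 higher and 3 lower in LATS1/2-Sox9-KO, and 0 higher and 3 lower between the knockout groups (1 higher at an unadjusted p under 0.05, 0 by DESeq2), with medians of 0.88, -0.24 and -0.95. Of the 3 lower calls, that of Oxtr, the oxytocin receptor gene, ended in 9 of 18 alternatives (-2.55, adjusted p = 0.0345, and -1.50, adjusted p = 0.0671 without LATS1/2-KO replicate 2). Acta2, smooth muscle actin, was at 974, 992 and 662 normalised counts in control, at 8402, 15186 and 11128 in LATS1/2-KO, and at 3904, 5431 and 4427 in LATS1/2-Sox9-KO. Its lower call between the knockout groups (-1.34 ± 0.23, adjusted p = 0.0135) ended in 1 of 18 alternatives. Myh11, smooth muscle myosin, was at 691, 650 and 596 in control and fell by 2.21 ± 0.27 and 1.23 ± 0.26 (adjusted p = 9.56e-05 and 0.00263), the latter being -0.99 without LATS1/2-Sox9-KO replicate 1.

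Markers of other cells that a sorted mammary fraction could hold were summed per kb in each library. The 7 basal and myoepithelial markers, led by Acta2, summed to 1017, 1175 and 927 in control, 4358, 7443 and 5603 in LATS1/2-KO, and 2084, 3589 and 2847 in LATS1/2-Sox9-KO. Of the 7, 2 were called higher (Acta2 and Cnn1) and 3 lower (Trp63, Myh11 and Mylk) in LATS1/2-KO, and 2 higher (Acta2 and Krt5) and 4 lower (Trp63, Myh11, Mylk and Oxtr) in LATS1/2-Sox9-KO. The call of Oxtr against control ended in 3 of 18 alternatives. Among them were the fits without LATS1/2-Sox9-KO replicate 1 (adjusted p = 0.0517) and without LATS1/2-Sox9-KO replicate 3 (adjusted p = 0.0624). The 8 skin keratinocyte and hair markers summed to 12.2, 60.8 and 157 in control, to 34.7, 49.8 and 59.0 in LATS1/2-KO, and to 64.8, 40.9 and 48.1 in LATS1/2-Sox9-KO, with Krt2, Flg and Krt25 at 0 everywhere. Krt77 led in control, at a mean of 62.05 per kb, and Lor in the knockout groups, at 46.4 and 40.2. Of the 3 that were tested, 1, Krt77, was called lower in each knockout group, the only call open to it, and 0 were called higher by edgeR, with 1 higher at an unadjusted p under 0.05 in each and 1 higher by DESeq2 in LATS1/2-KO. Lor, a protein of the cornified envelope, was at 1.78 and 1.58 with all knockout libraries above all controls (adjusted p = 0.0685 and 0.0986). Of the defining pair of epidermal suprabasal cells, Krt10 was not called in either knockout group and Krt1 could only be called lower. In a sum over sorted cells, fewer cells of a type and less RNA per cell cannot be told apart.

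The 10 leukocyte markers summed to 695, 475 and 440 in control, 1498, 919 and 554 in LATS1/2-KO, and 979, 972 and 1242 in LATS1/2-Sox9-KO, with Cd3e and Ms4a1 at 0 in all libraries. Cd68 led in control, at a mean of 320 per kb, and Csf1r in the knockout groups, at 400.1 and 561 against 27.4 in control. Of the 6 that were tested, 1 was called higher in LATS1/2-KO (Csf1r) and 2 in LATS1/2-Sox9-KO (Csf1r and Adgre1, the latter call ending in 5 alternatives). The 7 fibroblast markers summed to 374, 684 and 1564 in control, 1276, 371 and 493 in LATS1/2-KO, and 386, 514 and 940 in LATS1/2-Sox9-KO, with 5 called higher and 1 lower in LATS1/2-KO and 4 higher and 2 lower in LATS1/2-Sox9-KO. Dcn led in control, at a mean of 747 per kb, and was at 158 and 27.0 in the knockout groups. In LATS1/2-KO Col3a1 had the highest mean through replicate 1 alone, at 414, 127 and 71.9 per kb, and in LATS1/2-Sox9-KO Col1a1 led at 246. The call of Dcn in LATS1/2-KO ended in 7 of 18 alternatives (-1.43, adjusted p = 0.18 without control replicate 3) and that of Col1a1 in 3 (0.81 without LATS1/2-KO replicate 1). The 5 endothelial markers summed to 346 to 426 in control and to 37.4 to 125 in the knockout libraries, with 1 called each way in each knockout group. The higher call in LATS1/2-KO, that of Kdr, ended in 2 of 17 alternatives (2.04, adjusted p = 0.0598 without LATS1/2-KO replicate 3). Vwf led in control, at a mean of 320 per kb, and Pecam1 in the knockout groups, at 44.9 and 32.5. The 4 adipocyte markers, led by Fabp4, summed to 60.7, 41.2 and 66.2 in control, 108, 1027 and 501 in LATS1/2-KO, and 12.7, 344 and 281 in LATS1/2-Sox9-KO, with 3 and 2 called higher. The calls of Adipoq and Cidec in LATS1/2-Sox9-KO each ended in 7 of 16 alternatives and that of Fabp4 in LATS1/2-KO in 6 of 18, among them the removal of any 1 control replicate. Adipoq and Cidec passed the filter only through the knockout libraries, so that higher was the only call open to them. The part of these markers in the keratin values was not tested.

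The genes whose log2 CPM (counts scaled to a common library size) followed a keratin most closely over the 9 libraries were named by Pearson's r, as a description that rests largely on the difference between groups. For Krt14 they were Jpt1, Inhba, Tfdp1, Moxd1 and Cdc42ep2 (r from 0.997 to 0.998). For Krt17 they were Oas3, Nars, Adam8, Cdc34 and Oxsr1 (r from 0.992 to 0.993). For Krt5 the highest values were lower, from 0.901 to 0.915, for Gm6392, Aga, Enpp1, Klhl30 and Col17a1, the last of which encodes the hemidesmosomal collagen XVII of basal cells. Oas3, an interferon-induced sensor of double-stranded RNA, was at 217, 188 and 131 normalised counts in control, at 1597, 1888 and 1867 in LATS1/2-KO, and at 12060, 8347 and 6096 in LATS1/2-Sox9-KO. That order of groups, shared with Krt17, follows from its choice by r.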

How the data were processed

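RNA was prepared from sorted cells with the TruSeq RNA v2 kit, which does not mark strand, and sequenced as read pairs. The authors aligned reads to mm10 with STAR (2.6.0c) and deposited whole-number counts per Ensembl gene from featureCounts (Subread 1.6.2), using uniquely aligned proper pairs described as on the same strand, without mitochondrial genes. The 9 columns were mapped by sample title, and 346 identifiers had no symbol.

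From the deposited counts, genes with low counts were removed by edgeR's filterByExpr, libraries were scaled by TMM, and a single quasi-likelihood model of all 9 libraries was fitted with edgeR (4.0.16, R 4.3.3), with Benjamini-Hochberg adjustment over 19357 genes. Standard errors and 95% intervals follow from that model. Levels per kb used union exons of GENCODE M21 on GRCm38. Alternatives were DESeq2 (1.42.0), other scalings and filters, a replicate block, glmTreat, fits of 2 groups alone and the removal of each library in turn, and the longest transcript in place of union exons.

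The keratins and gene lists were chosen with earlier results of these data known. Named genes were the 10 keratins, the simple keratins, Krt4, Krt2, Lats1, Lats2, Sox9 and Trp63, the 5 other keratins highest per kb, up to 2 called genes at each end of each list and comparison, and the 5 genes closest to Krt14, Krt17 and Krt5 by r. Not every called gene so chosen is given a value above, Sbsn, Slpi, Maf and Tagln among them. Counting intervals cover counting error only.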

Additional observations from a re-analysis of the deposited data

How the results depend on the processing

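Over 18 alternatives, the calls of Krt14, Krt17, Krt6a and Krt15 against control in both knockout groups, and those of Krt16 and Krt17 between the knockout groups, kept their direction and were not lost. A threshold test on the fold itself (glmTreat) left 1962 genes higher and 2043 lower in LATS1/2-KO, 2240 and 2468 in LATS1/2-Sox9-KO, and 18 and 14 between the knockout groups. It ended the calls of Ppl, Evpl and Il1a between the knockout groups, which no other alternative ended. DESeq2 called 479 higher and 730 lower between the knockout groups. Leaving out each library in turn, all genes called in LATS1/2-KO ranged from 2994 to 3509 higher and 3174 to 3767 lower, in LATS1/2-Sox9-KO from 3265 to 3658 and 3423 to 4122, and between the knockout groups from 121 (without LATS1/2-KO replicate 3) to 497 (without LATS1/2-KO replicate 1) higher and from 78 (without LATS1/2-Sox9-KO replicate 2) to 582 lower. The higher count was 123 without LATS1/2-Sox9-KO replicate 2, and the lower count was 157 without LATS1/2-KO replicate 3, 222 without LATS1/2-Sox9-KO replicate 1 and 210 without LATS1/2-Sox9-KO replicate 3. Of the 9 tested keratins, 4 were called higher between the knockout groups by DESeq2, as were 4 of all 10 with no filter, in both cases with Krt5 and Krt6a added. With no filter 4 were called lower in LATS1/2-KO, Krt6b being added. With a minimum of 10 counts in every library, 1 was called lower in LATS1/2-KO and 1 in LATS1/2-Sox9-KO, since Krt13 and Krt1 were then not tested. Leaving out a library gave 3 to 3, 4 to 5 and 2 to 3 keratins higher and 3 to 4, 3 to 3 and 0 to 0 lower in the 3 comparisons.

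Values that changed sign were all uncalled. Between the knockout groups Krt10 was at 0.014 with no filter. With a library left out, Krt10 ran from -0.072 to 0.11 (positive without control replicate 3, LATS1/2-KO replicate 2 or 3, or LATS1/2-Sox9-KO replicate 1), Krt13 from -1.23 to 0.15 (positive without LATS1/2-KO replicate 1 or LATS1/2-Sox9-KO replicate 3), Krt15 from -1.26 to 0.67 (positive without LATS1/2-KO replicate 1) and Lats2 from -0.036 (without LATS1/2-Sox9-KO replicate 1) to 0.29. In LATS1/2-KO against control Krt4 ran from -1.22 to 0.026 (positive without control replicate 3) and Krt5 from -0.21 to 0.42 (negative without control replicate 3 or LATS1/2-KO replicate 1 or 3). The causes were not tested.

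Deviations of libraries with the same replicate number correlated at -0.0657 to 0.17, and those with other numbers at -0.164 to 0.0641. Between the knockout groups, libraries numbered 1 correlated at 0.105, those numbered 2 at 0.17 and those numbered 3 at -0.0322. Crossing numbers 1 and 2 gave -0.164 and -0.126, the lowest values. Whether the numbers mark pairs was not tested. With a replicate block, 265 genes were called higher and 336 lower between the knockout groups, and the call of Krt5 in LATS1/2-Sox9-KO ended (1.56, adjusted p = 0.0631). With the longest transcript in place of union exons, the share of the 10 keratins was 0.635, 16.9 and 15.6% of the keratin pool in the 3 groups. Krt6b, Krt13 and Krt1 are limited by depth, with 0 to 142 counts per library.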

Other observations

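Several other keratins, named here after their values were seen, moved with the knockout labels. Krt80, a type II keratin of differentiating epithelium, stood at 2896, 3007 and 1297 normalised counts in control, at 6052, 9595 and 10313 in LATS1/2-KO, and at 18698, 13921 and 12446 in LATS1/2-Sox9-KO, with no overlap between groups. It rose by 1.85 ± 0.32 and 2.65 ± 0.33 on the log2 scale (edgeR adjusted p = 0.000833 and 8.95e-05). Its difference between the knockout groups, 0.80 ± 0.31, was not called (adjusted p = 0.166). Krt23 and Krt42 were called only in LATS1/2-Sox9-KO against control, at 2.47 ± 0.51 and 1.67 ± 0.38 (adjusted p = 0.00197 and 0.00364), and their differences between the knockout groups, 1.31 and 1.28, were not called (adjusted p = 0.143 and 0.0725), although that of Krt23 was called without LATS1/2-KO replicate 1 (2.03, adjusted p = 0.0199). Krt23 was also called in LATS1/2-KO against control without control replicate 2 (1.65, adjusted p = 0.0283) or LATS1/2-KO replicate 3 (1.49, adjusted p = 0.0288). Krt79, a keratin of the sebaceous duct, was at 320, 1123 and 2517 normalised counts in control, at 243, 30.5 and 44.7 in LATS1/2-KO, and at 20.4, 15.9 and 30.1 in LATS1/2-Sox9-KO, and fell in both comparisons with control (-3.65 and -5.88, adjusted p = 0.00559 and 0.000659). Without LATS1/2-KO replicate 1 the first value was -5.13, and without control replicate 3 they were -2.79 and -5.01, all still called. Krt87, a hair keratin, was at 146, 216 and 184 in control and at 3.6 to 18.6 in the knockout libraries.

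Of the 10 keratins, Krt5, Krt10, Krt13 and Krt14 had promoter windows among the RefSeq sequences on GRCm38, with the window of Krt14 at an internal start 1518 bases inside the gene. On either strand, the letters TATAAA occurred in the window of Krt10 and in 13.6% of all 32851 windows of that length, TGANTCA, a match for AP-1, in both windows of Krt13 and in 7.81%, and GGAATG, a match for TEAD factors, in the window of Krt14 and in 14.7%. ACAATG, a match for SOX factors, occurred in none of them and in 12.6% of all. None of the 4 motifs was found in the window of Krt5.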
